A study of Mus musculus with 13 samples.

Results

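Histone genes fall into those whose mRNA ends in a stem-loop and those whose mRNA carries a poly(A) tail. This account covers 10 genes of 23236 in the deposited gene table of C2C12 mouse myoblasts, matched by gene symbol, with no measured value in the rule, although the list was drawn up with earlier results of these data known. Of these, 6 encode histone variants outside the Hist clusters (H2afz, H2afx, H2afy, H3f3a, H3f3b and H1f0), and 4 encode proteins that process or regulate cluster histone mRNA (Slbp, Lsm10, Lsm11 and Casp8ap2). All 10 were found, each as a row with a locus of its own. All had status OK and a mean of at least 1 FPKM, the filter on low values, where FPKM is a fragment count divided by transcript length and by library size.

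C2C12 is an immortal line that divides as single myoblasts in serum-rich medium and forms myotubes once serum is withdrawn. The series holds 4 RNA-seq and 9 ChIP-seq samples by its labels. The comparison used 2 poly(A)-selected RNA-seq libraries of C2C12 labelled as myoblasts, one named siNC and the other siLinc-Yy1. Read as such names commonly are, the first received a control siRNA and the second an siRNA against Linc-Yy1, a long noncoding RNA gene next to Yy1. The labels give neither the siRNA dose nor the time after transfection. With 1 library per condition, replicate error is unknown, no test was run, and every value describes these libraries rather than the conditions.

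Replication-dependent histones are made in S phase from intronless cluster genes, and their mRNA is cut downstream of a stem-loop in place of polyadenylation. SLBP binds the stem-loop, the U7 small nuclear ribonucleoprotein with its own subunits LSM10 and LSM11 base-pairs just downstream, and CASP8AP2, also called FLASH, holds LSM11 to the cleavage complex. Variant histones such as H3.3, H2A.Z, macroH2A and H1.0 come from scattered genes, are mostly polyadenylated and are made throughout the cell cycle. They replace the replication-dependent forms at promoters, enhancers and silent domains, and in cells that leave the cycle.

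Both libraries carried myoblast markers. All 8 myoblast markers passed the filter, with Myod1, the muscle determination factor, at 62.5 (siNC) and 67.0 FPKM (siLinc-Yy1), the order of libraries in every pair of values below. The 5 endothelial markers summed to 0.390 and 0.464 FPKM, with all 5 below the filter. Of the 6 macrophage markers, which summed to 14.6 and 13.8 FPKM, only Cd14 (9.90 and 9.16 FPKM) and Cd68 (4.48 and 4.43 FPKM) passed the filter, and the pan-leukocyte marker Ptprc stood at 0.0226 and 0.0101 FPKM. Of the 5 adipocyte markers, which summed to 9.79 and 12.1 FPKM, only Pparg (8.04 and 10.4 FPKM) and Fabp4 (1.71 and 1.63 FPKM) passed it, and Adipoq stood at 0.0133 and 0.0185 FPKM. In bulk RNA, fewer cells expressing a gene and less RNA per cell cannot be told apart. From the steps in FPKM of single-exon receptor genes, 1 FPKM over 1 kb corresponded to about 59.6 fragments in siNC and 42.6 in siLinc-Yy1.

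Each variant gene was more abundant than each processing factor, and the order of the 10 genes was the same in both libraries. In siNC, Slbp and Lsm10 stood above 78.3% and 63.3% of rows past the filter, and Casp8ap2 and Lsm11 above 24.4% and 16.2%. From the top the order ran H2afz, H3f3b, H3f3a, H1f0, H2afy, H2afx, Slbp, Lsm10, Casp8ap2 and Lsm11. The mRNA level of H2afz, per length, was 51.6 times that of Lsm11 in siNC and 72.9 times in siLinc-Yy1. The closest of the 4 highest genes were H3f3b and H3f3a in siNC, at a ratio of 1.08, and H3f3a and H1f0 in siLinc-Yy1, at a ratio of 1.05. With no spread between replicates, the order of such close neighbours is not resolved.

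**Figure D1:**
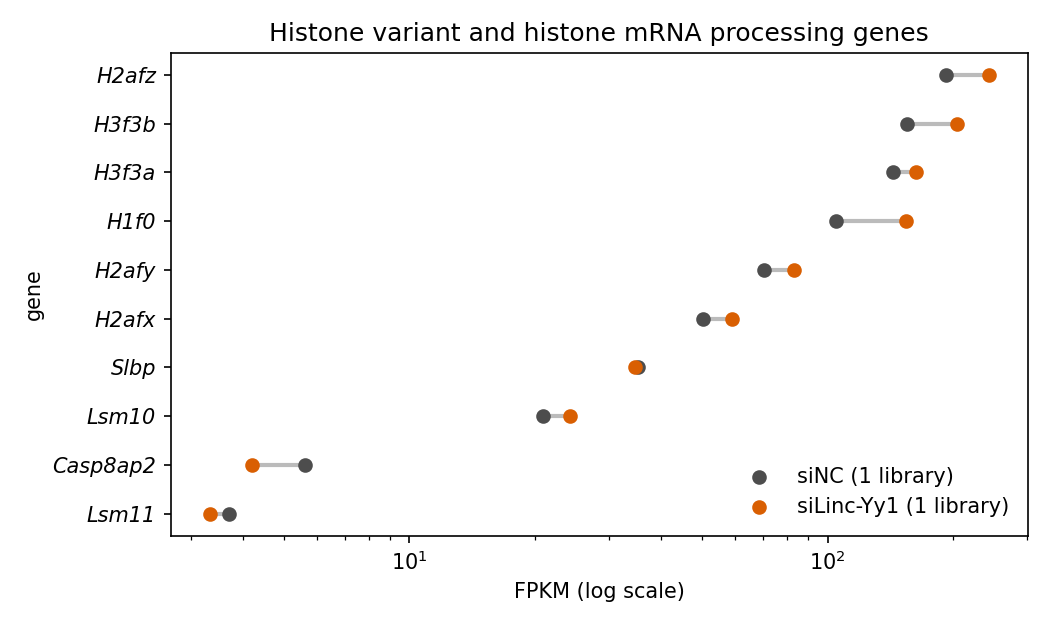
FPKM (log axis) of the 10 genes in the siNC library (grey) and the siLinc-Yy1 library (orange), 1 library each, sorted by the siNC level. The 6 variant genes lie at 50.3 FPKM and above, the 4 processing factors at 35.2 FPKM and below, and siLinc-Yy1 is to the right of siNC in 7 of the 10.

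All differences among these genes were small. The log2 difference, which is the log2 value of FPKM + 1 for siLinc-Yy1 minus the same for siNC, ran from -0.35 for Casp8ap2 to 0.55 for H1f0, with a median of 0.22. None of the 10 was at least 2-fold higher in siLinc-Yy1, a mark reached by 1.39% of the 11792 rows past the filter. None was at least 2-fold lower, against 0.178% of rows. At 1.5-fold the counts were again 0 higher and 0 lower, against 3.28% and 0.517% of rows. At these background shares fewer than 1 of 10 genes would pass, so the counts of 0 lie near the background. No member was called in the authors' deposited table, against 1.62% of its rows with status OK, and its lowest q-values were 0.397 for Casp8ap2 and 0.443 for H1f0.

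The direction of most members was that of rows of like level. Above 0 were 7 of the 10, against 45.4% of all rows past the filter, whose median was -0.021. All 6 variant genes were above 0, with a median of 0.29, but so were 92.8% of the 1351 rows in their range of mean level (54.7 to 217 FPKM), whose median was 0.20. Of the 4 processing factors 1 was above 0, with a median of -0.072 over the 4, against 34.6% of the 7296 rows in their range (3.52 to 34.9 FPKM) and a median of -0.055. Less the running median of rows of like mean level, called the trend below, 5 of the 10 were above 0 and 5 below, with a median of 0.018. The split between variant genes and processing factors was thus near what rows of like level showed. Slbp (-0.023, trend 0.046) and Lsm10 (0.21, trend -0.0018) had the opposite sign to the trend at their level. When both libraries were rescaled to equal summed FPKM, 3 members (H2afz, H3f3b and H1f0) were above 0 and 7 below, and the median was -0.093 against -0.31 for all rows.

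**Figure D2:**
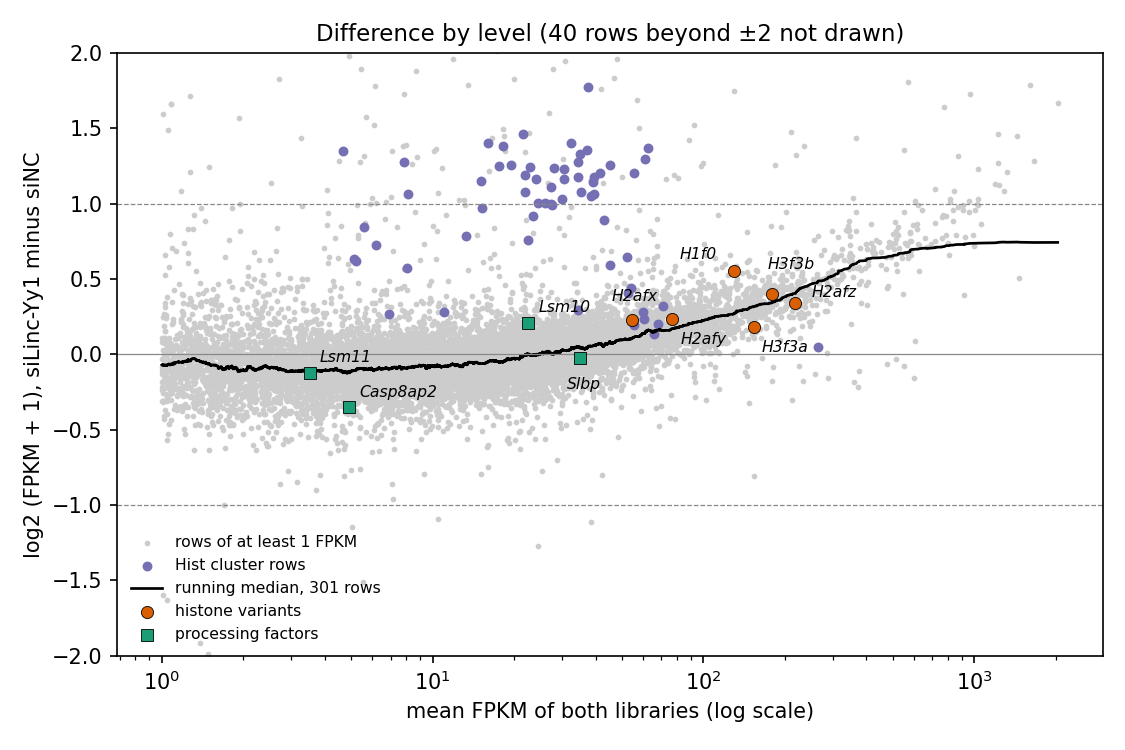
Log2 difference of (FPKM + 1), siLinc-Yy1 minus siNC, against mean FPKM (log axis) for rows of at least 1 FPKM (light grey), with Hist cluster rows in purple, variant genes as orange circles and processing factors as green squares. The black line is the running median by level and the dashed lines mark 2-fold. The members lie near the line, from -0.23 (Casp8ap2) to 0.28 (H1f0) away from it, while most Hist cluster rows lie far above it, and 40 rows beyond a difference of 2 in size are not drawn.

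H2afz encodes H2A.Z, the H2A variant placed beside transcription start sites by the SRCAP and EP400 remodelers. It lies on chromosome 3 from 137527563 to 137529886 (mm9, like all gene positions here) and stood at 191 and 243 FPKM. It was the most abundant member in both libraries, and siLinc-Yy1 stood higher by a ratio of 1.27. Its log2 difference of 0.34 was 0.063 below the trend of rows of its level (a value less the trend of -0.063). H2afv, the second gene for H2A.Z, measured 38.5 and 46.3 FPKM. H2afz thus gave 83.2% of the summed FPKM of this pair in siNC and 84.0% in siLinc-Yy1.

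H2afx encodes H2A.X, which is phosphorylated around DNA double-strand breaks. Its gene on chromosome 9 from 44142798 to 44144156 has no intron, and its mRNA is known to occur both with a stem-loop end and with a poly(A) tail. Its levels were 50.3 and 59.1 FPKM, the lowest of the 6 variant genes in both. The ratio was 1.18 and the log2 difference 0.23, or 0.12 less the trend. Because the gene is intronless, its values could be turned into about 4075 and 3427 fragments, which give the ratio an exact binomial interval (95%) of 1.12 to 1.23 for counting error only.

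H2afy encodes macroH2A1, an H2A variant with a large globular domain that is enriched in silent chromatin. The gene on chromosome 13 from 56174983 to 56236911 makes splice forms that a gene-level value does not separate. Its levels were 70.5 and 83.0 FPKM, a log2 difference of 0.23 and 0.062 less the trend. H2afy2, the gene for macroH2A2, measured 10.7 and 9.88 FPKM. H2afy therefore made up 86.8% and 89.4% of the summed FPKM of the macroH2A pair, and the minor gene was the one that stood lower in siLinc-Yy1. The log2 difference of H2afy2 was -0.11, or -0.035 less the trend, and 29.1% of rows of 5 to 20 FPKM were above 0.

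H3f3a and H3f3b encode the same protein, H3.3, the H3 form that HIRA and DAXX with ATRX deposit outside replication. H3f3a, on chromosome 1 from 182732699 to 182743734, stood at 144 and 163 FPKM. H3f3b, on chromosome 11 from 115883275 to 115885818, stood at 155 and 204 FPKM. H3f3b was the higher of the pair in both libraries, and its share of their summed FPKM was 51.8% in siNC and 55.7% in siLinc-Yy1. The log2 difference was 0.18 for H3f3a and 0.40 for H3f3b, or -0.14 and 0.054 less the trend. Processed pseudogenes of H3f3a exist in the mouse genome, so how reads were divided between copies could affect both values.

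The promoters of this pair differ although the protein is shared, and the 250 bases before the RefSeq start of each (GRCm38.p6) are shown to let them be compared. H3f3a lies on the minus strand with the window at chr1:180813606-180813855, and H3f3b on the minus strand at chr11:116024505-116024754. Capitals mark every match on either strand to CCAAT (the NF-Y box), TATAAA (the TATA box), ATGCAAAT (the octamer of histone H2B promoters), CCATNTT (the core bound by YY1) and TTTNGCGC (an E2F-like site).
H3f3a: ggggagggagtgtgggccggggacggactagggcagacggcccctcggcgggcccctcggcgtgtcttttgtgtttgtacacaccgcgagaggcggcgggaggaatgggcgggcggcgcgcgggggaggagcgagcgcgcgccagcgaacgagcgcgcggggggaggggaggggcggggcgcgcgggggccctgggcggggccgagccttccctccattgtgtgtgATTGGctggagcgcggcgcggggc
H3f3b: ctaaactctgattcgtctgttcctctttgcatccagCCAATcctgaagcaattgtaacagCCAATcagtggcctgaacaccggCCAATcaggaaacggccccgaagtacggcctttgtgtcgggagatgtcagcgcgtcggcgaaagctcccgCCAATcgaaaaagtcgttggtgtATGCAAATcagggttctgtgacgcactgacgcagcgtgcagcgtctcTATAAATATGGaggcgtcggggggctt
H3f3b held 4 CCAAT matches, at -214, -190, -167 and -97 from the start, an octamer at -74 and a TATA box at -27 that overlaps a YY1 core match on the other strand at -23. H3f3a held 1 CCAAT match, at -24 on the other strand, and a YY1 core match after the start, at 36. The GC content of the 250 bases was 77.2% for H3f3a and 54.0% for H3f3b. A match is a string of letters and not a shown binding site.

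Over the 9 members found in the RefSeq promoter table, a CCAAT match occurred in 6 of the 300-base windows (250 before to 50 after the start), against 37.4% of all 32851 windows. The YY1 core occurred in 3 (H3f3a, H3f3b and Lsm11), against 16.1% of windows, the octamer in H3f3b alone (1.74% of windows) and the TATA box in H3f3b alone (13.6%). The 3 members with a YY1 core match had log2 differences of 0.18, 0.40 and -0.12, or -0.14, 0.054 and -0.019 less the trend. The matches of H3f3a and Lsm11 lie after the start, and a link between match and difference was not tested.

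H1f0 encodes H1.0, the linker histone that accumulates in cells that stop dividing or differentiate. Its intronless gene lies on chromosome 15 from 78858642 to 78860930. It reached 105 and 154 FPKM, and the ratio of 1.47 was the highest of the 10 members. About 14324 and 15070 fragments stand behind these values, and the exact binomial interval (95%, counting error only) of the ratio was 1.44 to 1.51. The log2 difference of 0.55 was 0.28 less the trend, inside the central 95% of rows of 100 to 200 FPKM (-0.36 to 0.39 less the trend). H1fx, a further linker gene outside the clusters, measured 38.5 and 46.7 FPKM. H1f0 thus made up 73.1% and 76.8% of the summed FPKM of H1f0 and H1fx.

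Among the variant genes outside the member list, 5 passed the filter and none was at least 2-fold different. Besides H2afv, H2afy2 and H1fx these were H2afj, an H2A gene, at 21.1 and 24.7 FPKM, and Cenpa, the centromeric H3 variant, at 53.6 and 53.3 FPKM. Their median log2 difference was 0.22, against 0.29 for the 6 member variants, and less the trend the order turned, at 0.20 against 0.058. The germline forms H1foo and H1fnt were listed at 0 in both libraries.

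Slbp encodes the stem-loop binding protein, which accompanies histone mRNA from cleavage to translation and is itself limited to S phase. It lies on chromosome 5 from 33982711 to 33994955 and stood at 35.2 and 34.7 FPKM. The ratio of 0.984 was the closest to 1 of all members, and the value less the trend was -0.069. Lsm10, a U7 subunit on chromosome 4 from 125773897 to 125775828, stood at 20.8 and 24.2 FPKM, a log2 difference of 0.21. It was the only processing factor above 0. Lsm11, its partner in the U7 ring on chromosome 11 from 45741771 to 45758437, stood at 3.71 and 3.33 FPKM, a log2 difference of -0.12. The mRNA level of Lsm10 per length was 5.61 times that of Lsm11 in siNC and 7.29 times in siLinc-Yy1.

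Casp8ap2, on chromosome 4 from 32702448 to 32740240, stood at 5.63 and 4.21 FPKM. Its ratio of 0.747 was the lowest of the 10, its log2 difference was -0.35, and 3.17% of all rows past the filter lay below that value. Less the trend it stood at -0.23, inside the central 95% of rows of 1 to 5 FPKM (-0.40 to 0.60). Slbp stood 6.26 times above Casp8ap2 per length in siNC and 8.24 times in siLinc-Yy1.

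The promoters of Slbp and Casp8ap2 are shown because these genes are the processing factors with the smallest and the largest difference. The windows are chr5:33652575-33652824 on the minus strand for Slbp and chr4:32615220-32615469 on the plus strand for Casp8ap2 (GRCm38.p6, the 250 bases before the start), with capitals for the same motifs.
Slbp: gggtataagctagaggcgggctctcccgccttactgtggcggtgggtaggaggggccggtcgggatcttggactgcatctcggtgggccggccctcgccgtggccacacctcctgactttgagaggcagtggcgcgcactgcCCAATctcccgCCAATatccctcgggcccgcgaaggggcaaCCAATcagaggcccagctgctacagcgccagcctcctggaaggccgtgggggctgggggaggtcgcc
Casp8ap2: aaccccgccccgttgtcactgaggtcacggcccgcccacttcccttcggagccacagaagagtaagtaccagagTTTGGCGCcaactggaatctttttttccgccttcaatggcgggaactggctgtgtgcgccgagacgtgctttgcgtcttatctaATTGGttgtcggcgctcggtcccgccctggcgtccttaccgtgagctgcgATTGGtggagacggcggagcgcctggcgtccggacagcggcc
Slbp held 3 CCAAT matches, at -108, -97 and -67. Casp8ap2 held 2 on the other strand, at -92 and -42, and the only TTTNGCGC match among the members, at -176, a string found in 1.38% of all windows. CCAAT matches thus occurred both in the member closest to 0 and in the lowest one.

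On the median, further rows listed for histone mRNA 3' processing also lay close between the libraries. A list drawn up for the U7 ring and cleavage complex had 20 rows past the filter. Cpsf3l, Ncbp1 and Srrt, among others, were listed there although they are outside both. Of the 20, 13 were above 0 and 7 below, with a median log2 difference of 0.074 and 0.0022 less the trend. The largest differences were in Sm proteins that the U7 ring shares with spliceosomal particles, and they did not share a direction. Snrpd3 (161 and 219 FPKM), Snrpg (194 and 256 FPKM) and Snrpf (34.9 and 42.8 FPKM) stood higher in siLinc-Yy1, at 0.085, -0.037 and 0.23 less the trend. Snrpe stood lower (83.1 and 68.8 FPKM), at -0.43 less the trend. That value lay outside the central 95% of rows of 50 to 100 FPKM (-0.27 to 0.45 less the trend). Among 31 rows for export, translation and decay of histone mRNA, 8 were above 0 and 23 below, with a median of -0.089 and -0.069 less the trend. Lsm5, of the decay-linked LSM ring, measured 30.2 and 21.5 FPKM. At -0.48 less the trend, Lsm5 lay outside the central 95% of rows of 20 to 50 FPKM (-0.29 to 0.52). Pnpt1, a mitochondrial nuclease, measured 17.1 and 13.4 FPKM, and Papd4, a poly(A) polymerase, 19.9 and 15.9 FPKM. The 16 rows for histone gene transcription and its S phase inputs had a median of -0.15, or -0.045 less the trend. Of these, 4 were above 0 and 12 below. They were led by E2f2 (10.8 and 8.05 FPKM), Cdc25a (10.9 and 8.40 FPKM) and Ccne2 (10.3 and 8.30 FPKM), all regulators of S phase entry. E2f1 (27.4 and 30.8 FPKM) and Ccna2 (68.0 and 76.1 FPKM) were among the 4 above 0. No row of these lists was at least 2-fold different, and none was called in the authors' deposited table.

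Rows for chaperones, exchange and signalling of the variants lay on both sides of 0. Of 11 rows of H3.3 chaperones 2 were above 0 and 9 below, with a median of -0.077 and -0.030 less the trend. Both H3.3 genes were above 0, but less the trend H3f3a stood at -0.14 and H3f3b at 0.054. Daxx measured 27.5 and 22.9 FPKM, Asf1a 10.4 and 8.71 FPKM and Nasp, which holds soluble H3 and H4, 45.7 and 39.1 FPKM. The 24 rows for H2A.Z and H2A exchange had a median of 0.051, with 14 above 0 and 10 below, but of -0.015 less the trend, with 9 above it and 15 below. They were led by Znhit1, a SRCAP complex subunit (57.4 and 76.2 FPKM), Nap1l1 (179 and 224 FPKM) and Set (134 and 162 FPKM), at 0.24, -0.062 and -0.042 less the trend. Of 20 rows of H2A.X signalling, 5 were above 0 and 15 below, with a median of -0.13 and -0.054 less the trend. Nbn, of the break-sensing MRN complex, measured 16.3 and 12.7 FPKM. The 38 DNA replication genes, read as a sign of S phase, had a median of 0.011 and of -0.089 less the trend, with 31 of them below the trend.

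**Figure D3:**
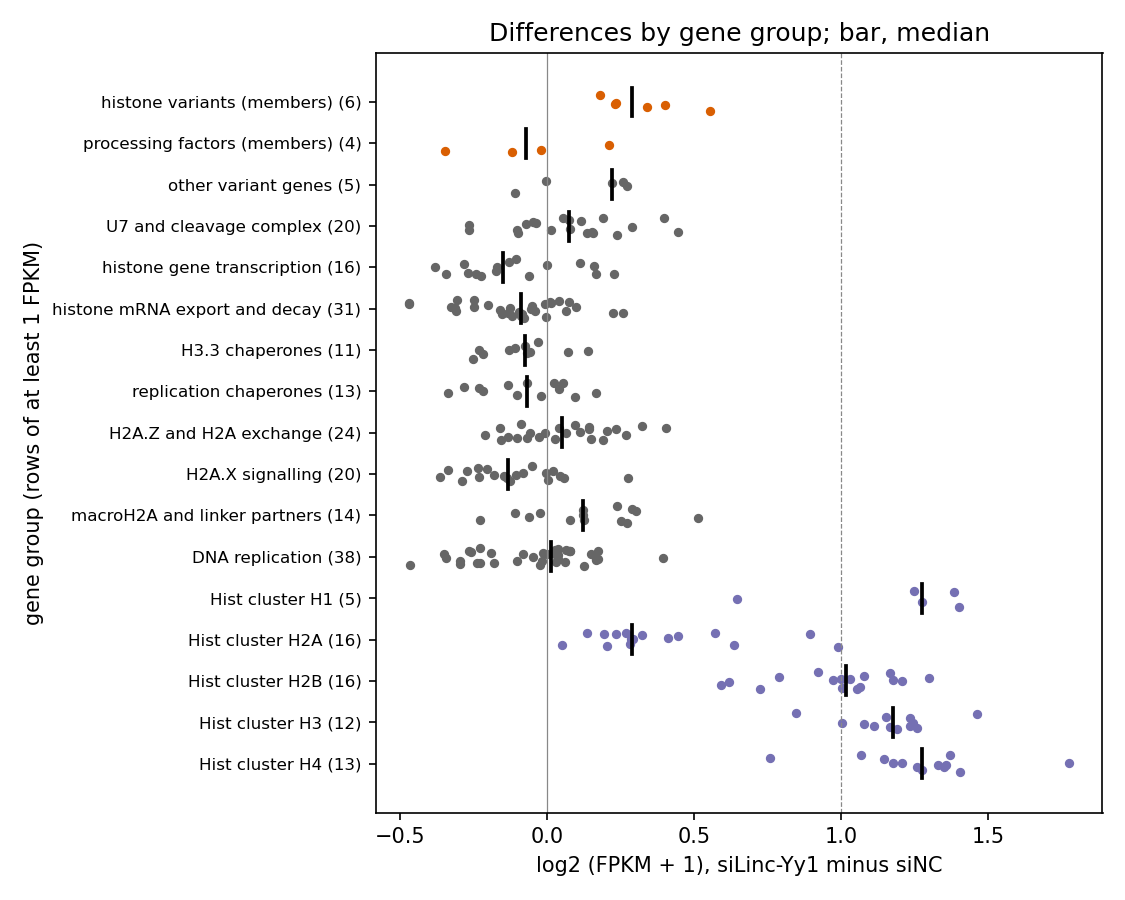
Log2 difference of (FPKM + 1), siLinc-Yy1 minus siNC, for the members (orange), related gene groups (grey) and Hist cluster rows by class (purple), with 1 point a row of at least 1 FPKM, the number of rows in brackets and a black bar at the median. The member variants (median 0.29) sit beside cluster H2A (0.29), and the medians of cluster H1, H2B, H3 and H4 lie at 1.02 and above. Less the trend, which is not drawn, the medians were 0.058 for the member variants and 0.28 for cluster H2A.

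Many replication-dependent genes differed more than the members and more than most other rows. Of 62 Hist cluster rows past the filter, 36 were at least 2-fold higher in siLinc-Yy1 and none lower, with a median of 1.07. Among all rows past the filter 1.39% were at least 2-fold higher, so the count of 0 among the 10 members lay near that share. The cluster rows were short genes with near-identical copies, and RNA was selected for poly(A), which most of their mRNA lacks. The part of this selection in the difference was not tested. H2A differed from the other cluster classes. Its 16 rows had a median of 0.29 and none reached 2-fold on the log2 scale with 1 FPKM added, whereas the medians were 1.27 for H1, 1.02 for H2B, 1.18 for H3 and 1.27 for H4. Within H2A, Hist2h2ac (18.2 and 37.1 FPKM, a log2 difference of 0.99) fell just short of 2-fold only because of the added 1 FPKM. The joint row of Hist2h2aa1 and Hist2h2aa2 (29.8 and 56.2 FPKM) stood at 0.89, and the authors' deposited table called 2 H2A rows higher. H2afx, at 0.23, lay close to the median of cluster H2A. Less the trend the 2 lay further apart, at 0.12 for H2afx and a median of 0.28 for cluster H2A.

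The balance between variant and cluster mRNA differed by histone class. The summed FPKM of H3f3a and H3f3b was 298 in siNC and 367 in siLinc-Yy1, while that of the 12 cluster H3 rows was 156 and 370. H3.3 mRNA thus stood at 1.91 times cluster H3 mRNA in siNC and 0.993 times in siLinc-Yy1. H1f0 stood at 1.44 times the summed cluster H1 rows in siNC and 1.02 times in siLinc-Yy1. For H2A the ratios were alike in both libraries, with H2afz at 0.237 and 0.250 times and H2afx at 0.0623 and 0.0609 times the summed 18 cluster H2A rows. These are ratios of poly(A)-selected mRNA and do not measure total cluster histone mRNA.

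**Figure D4:**
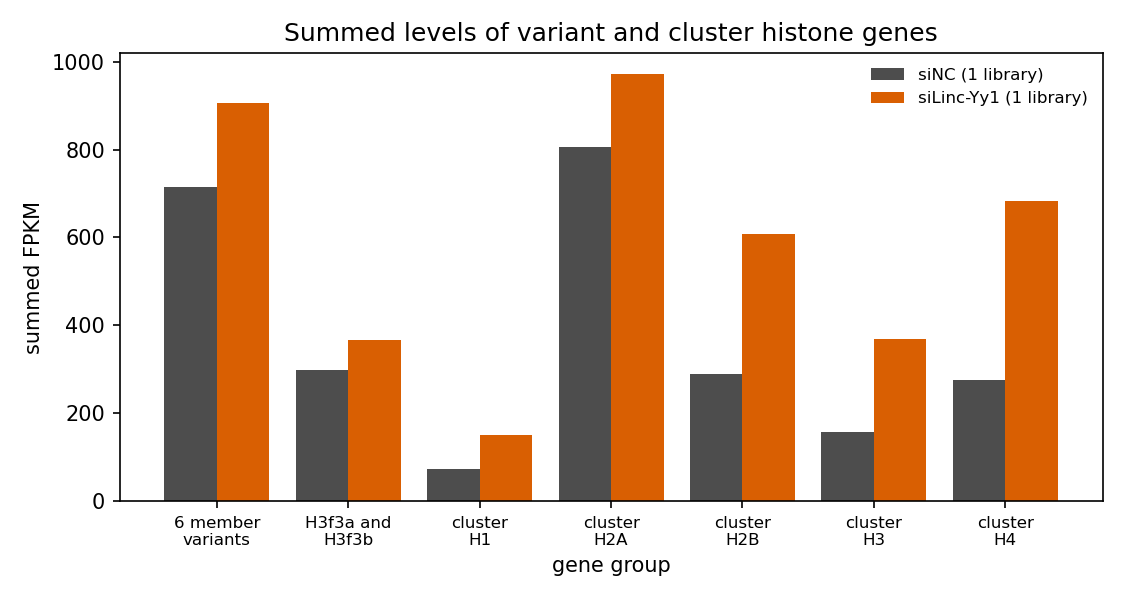
Summed FPKM in the siNC library (grey bars) and the siLinc-Yy1 library (orange bars), 1 library each, for the 6 member variants, the H3.3 pair and the Hist cluster rows by class. The H3.3 pair (298 and 367) stands above cluster H3 in siNC (156) and level with it in siLinc-Yy1 (370), and cluster H2A (807 and 971) differs less between libraries than the other classes.

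Beside the members, within 50 kb, 25 neighbouring rows passed the filter, with a median of -0.016 and a range of -0.17 to 0.34. The 6 neighbours of H2afx, Hinfp (a histone H4 gene transcription factor, 5.99 and 5.21 FPKM) among them, lay between -0.17 and 0.020, below the 0.23 of H2afx. Unk and Galk1, the neighbours of H3f3b, measured 12.7 and 12.8 FPKM and 57.0 and 60.4 FPKM. Slbp lay closer to 0 than each of its neighbours, at -0.023 against -0.090 to 0.13 for 3 genes. Lsm11, at -0.12, lay level with Thg1l (-0.12) and on the other side of 0 from Clint1 (0.26). Mdn1, a ribosome assembly gene 3853 bp from Casp8ap2, measured 5.44 and 5.37 FPKM, close to the level of Casp8ap2 but with a log2 difference of -0.016. Of the 15 neighbours of the variant genes, 14 were less abundant than the member in both libraries, the exception being Eif3l beside H1f0 (154 and 195 FPKM), and the part of level in this comparison was not tested.

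**Figure D5:**
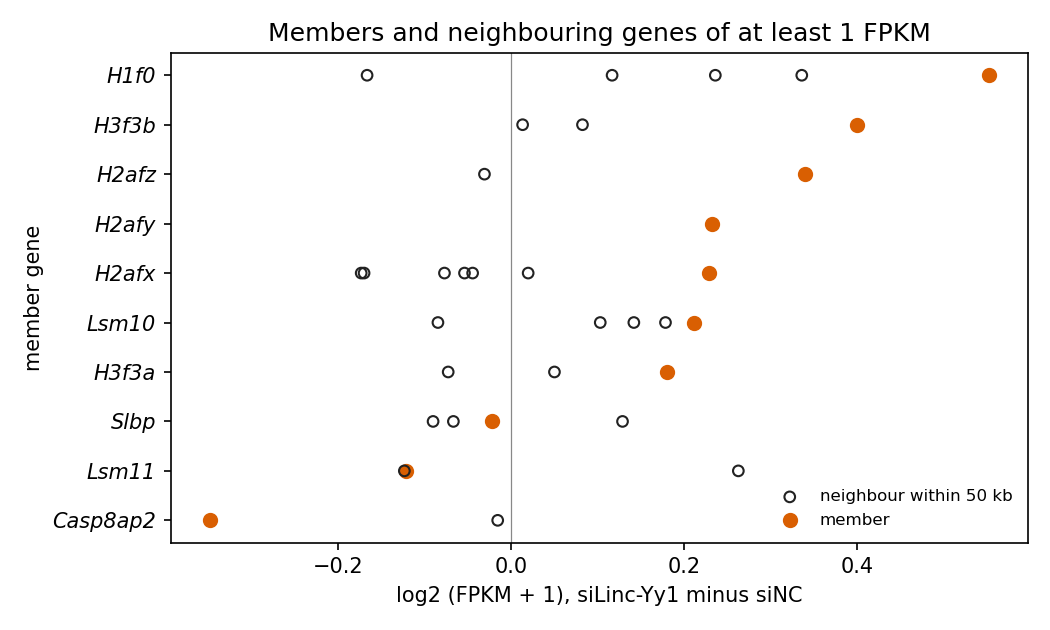
Log2 difference of (FPKM + 1), siLinc-Yy1 minus siNC, of each member (filled, orange) and of genes of at least 1 FPKM within 50 kb of it (open circles), with members sorted by difference. H2afy had no such neighbour, and the 6 around H2afx lie at 0.020 or below.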

How the data were processed

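The gene table holds FPKM values for each gene and condition, estimated by the authors with Cuffdiff per the file headers, in 2 identical copies of which 1 was read. The first FPKM column was taken as siNC and the second as siLinc-Yy1, as the file headers order them. Per the file headers, the q-value column is the authors' own test of these libraries. The deposited log2 fold change served only to check the direction. Tools named by the submitters' processing notes are Cuffdiff 2.0.4, Cufflinks 2.1.1 and TopHat2 2.0.4, with the build mm9. For annotation, strand use and scaling between libraries the sources used here name nothing.

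Differences were computed as log2 of (FPKM + 1), which understates low genes, for rows with a mean of at least 1 FPKM, with Python 3.11.15, pandas 2.3.3 and scipy 1.17.1. A difference of 2-fold was the size rule, and no test was run, as each condition has 1 library. The size rule and the trend were tested on simulated data. The planted differences exceeded 2-fold, so that test of the size rule does not cover differences as small as those of the members. Members and gene lists were chosen with earlier results of these data known. Named genes were all members, other variant genes past the filter and up to 3 per list with the largest difference at 5 FPKM or more. Promoter windows came from RefSeq (GRCm38.p6), matched by symbol or synonym. Other names outside that rule were chosen after their values were seen. Intervals cover counting error only and assume that low FPKM values step by 1 fragment.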

Additional observations from a re-analysis of the deposited data

How the results depend on the processing

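None of the 10 members was at least 2-fold higher or lower under any of the alternatives, which were other pseudocounts, filters, scalings and trend settings, a fold of 1.5 and the calls in the authors' deposited table. The median log2 difference of the members, 0.22 as reported, was -0.093 with equal summed FPKM, 0.17 with equal upper quartiles, and 0.018 less the running median by level with either the wide or the narrow window. Across the pseudocounts, the filters, centring and rows with status OK it lay between 0.20 and 0.24. Equal summed FPKM took H2afx, H2afy, H3f3a and Lsm10 below 0, and subtracting the running median took H2afz and H3f3a below 0. Casp8ap2, Lsm11 and Slbp were below 0, and H1f0 and H3f3b above 0, in every setting that held them, and Lsm11 and Casp8ap2 fall out at a mean of 5 FPKM. No paired analysis was possible because each condition has 1 library.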

Other observations

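High mobility group proteins, which bind nucleosomes and linker DNA, were listed with other partners of macroH2A and linker histones. The 14 rows past the filter had a median log2 difference of 0.12, with 10 above 0 and 4 below, and of -0.022 less the trend. H2afy2 and H1fx, variant genes already counted above, were among the 14. Hmgb2, a DNA-bending protein of dividing cells, stood at 53.2 (siNC) and 76.4 FPKM (siLinc-Yy1), or 0.37 less the trend, a larger value than that of any of the 10 members. Aplf, a repair factor with histone chaperone activity, measured 12.8 and 16.0 FPKM, and Hmga1 measured 51.1 and 62.6 FPKM. The 13 rows of replication-coupled chaperones and their partners, such as Hat1 and Ipo4, had a median of -0.070 and of -0.13 less the trend. Of the 13, 11 were below the trend. Asf1a and Nasp were also counted among the H3.3 chaperones, and Mcm2 among the DNA replication genes. Mms22l, a replication fork repair factor, measured 7.66 and 5.85 FPKM. None of these rows was at least 2-fold different, and the authors' deposited table called none.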
